A study of Homo sapiens with 6 samples.

Results

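Cyclin-dependent kinase inhibitors slow the entry of cells into S phase, and 9p21 is the chromosome band that holds CDKN2A, CDKN2B and MTAP, which are often lost together. This account describes 10 genes chosen by name: the 7 inhibitors CDKN1A, CDKN1B, CDKN1C, CDKN2A, CDKN2B, CDKN2C and CDKN2D, the 9p21 gene MTAP, and CCND1 and MYC, which act on the other side of the same control. Of these, 9 were measured in 23 probe sets, out of 19775 genes and 54613 probe sets in all. CDKN2C was not analysed here. The CRB3-expressing cells were MCF-10A, an immortalized and non-transformed human mammary epithelial line, infected with a retrovirus carrying amino-terminally myc-tagged CRB3, a small transmembrane protein of the apical polarity complex. The controls were the same line infected with the empty retrovirus. Both groups were, by the labels, selected with puromycin, grown in normal medium with EGF and harvested as proliferating monolayers, and both descend from a line known to have lost 9p21 DNA around CDKN2A. Each group had 3 arrays, and the sources do not tell whether the cells of a group were infected more than once. The p-values thus cover only the spread among these samples, which may be technical. Nothing in the sources names a clone, and the promoter driving CRB3 is not given in the sources used here.

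The inhibitors fall into a pair of families. The CIP/KIP proteins p21 (CDKN1A), p27 (CDKN1B) and p57 (CDKN1C) bind complexes of cyclins with CDK2, CDK4 or CDK6, whereas the INK4 proteins p16 (CDKN2A), p15 (CDKN2B), p18 (CDKN2C) and p19 (CDKN2D) bind CDK4 and CDK6 alone. Cyclin D1 (CCND1) activates CDK4 and CDK6, the active kinases phosphorylate RB, and E2F factors are then released. MYC is a growth-promoting transcription factor that represses CDKN1A and CDKN2B in many cells. In mammary epithelial cells in culture, p16 is known for stopping growth until the locus is silenced or lost.

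The sequences before the start sites of the inhibitors are given as background, and no link between them and the RNA levels was tested. RefSeq entries on GRCh38.p14 were used for 7 of the 10 genes, with 10 start sites, and not for CDKN1C, CCND1 and MYC. CDKN1A and CDKN1B are shown because their RNA was abundant and the arrays of the groups did not overlap, and CDKN2A is shown for the 9p21 locus. Neither CDKN1A nor CDKN1B passed both thresholds given below, and CDKN1B passed neither. Of all genes, 14.5% had the CRB3-expressing arrays above the vector control arrays without overlap, and 12.1% had them below. Each window is the 250 bases before the start, in the direction of transcription, and capitals mark the GC box (GGGCGG, searched with its complement CCGCCC), to which SP and KLF family factors bind. CDKN1A lies at chr6:36678464-36678713 on the plus strand and CDKN1B at chr12:12717118-12717367 on the plus strand. CDKN2A has an upstream start at chr9:21995325-21995574, which gives the ARF transcript, and a downstream start at chr9:21974858-21975107, which gives p16, both on the minus strand.
CDKN1A: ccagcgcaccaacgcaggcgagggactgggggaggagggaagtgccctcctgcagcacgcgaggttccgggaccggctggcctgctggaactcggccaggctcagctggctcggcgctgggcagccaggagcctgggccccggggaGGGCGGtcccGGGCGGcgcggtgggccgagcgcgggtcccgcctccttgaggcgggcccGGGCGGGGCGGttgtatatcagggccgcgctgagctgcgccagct
CDKN1B: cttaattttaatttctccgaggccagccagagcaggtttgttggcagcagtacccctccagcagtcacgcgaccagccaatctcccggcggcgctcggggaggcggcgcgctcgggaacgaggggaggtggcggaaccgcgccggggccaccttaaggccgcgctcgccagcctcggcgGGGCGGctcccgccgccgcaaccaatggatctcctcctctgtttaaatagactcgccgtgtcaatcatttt
CDKN2A upstream start: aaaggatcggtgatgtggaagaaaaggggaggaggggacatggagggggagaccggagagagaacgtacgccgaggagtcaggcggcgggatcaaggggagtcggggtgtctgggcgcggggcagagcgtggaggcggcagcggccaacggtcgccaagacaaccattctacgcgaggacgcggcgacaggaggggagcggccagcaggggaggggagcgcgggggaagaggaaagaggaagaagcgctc
CDKN2A downstream start: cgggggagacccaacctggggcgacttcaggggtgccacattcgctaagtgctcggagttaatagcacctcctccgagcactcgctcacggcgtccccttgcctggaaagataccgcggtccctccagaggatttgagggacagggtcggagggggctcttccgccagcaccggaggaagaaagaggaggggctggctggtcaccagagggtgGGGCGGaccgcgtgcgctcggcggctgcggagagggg
The CDKN1A window held 4 GC boxes, which began 104, 94, 45 and 40 bases before the start, the nearest 2 overlapping. The CDKN1B window held 1, at 71 bases. The downstream CDKN2A start had 1, at 37 bases, and the upstream start had 0. Among 35116 promoters with windows of the same length, 42.6% held this motif. Neither the E-box CACGTG, bound by MYC with MAX and present in 6.34% of promoters, nor TATAAA or its complement, present in 10.7%, occurred in the windows shown. Among the windows not shown, CDKN2C held an E-box 220 bases before one start and 69 bases before another. MTAP held the TATA motif at 215 bases. GC boxes also occurred in windows of CDKN2B, CDKN2C, CDKN2D and MTAP. A match of letters is a description and not a measured site.

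The labels held for the introduced gene. CRB3 read 12.16, 12.00 and 12.19 in CRB3-expressing cells, against 7.90, 7.59 and 7.85 in vector control cells, on the log2 RMA scale used for every level below. The difference was 4.33 (SE 0.095, n = 3 each) with a limma adjusted p of 1.83e-07. Array medians lay between 5.84 and 5.88. The arrays correlated at 0.997 to 0.998 within groups and 0.994 to 0.996 across groups, over probe sets. Of 12 epithelial markers, 8 were measured and all 8 lay above the level of genes restricted to other tissues on all 6 arrays. Their summed linear signal was 47766 to 49094 in CRB3-expressing cells, against 39453 to 40838 in vector control cells, and KRT14 and CDH1 were called higher. Of 14 fibroblast, endothelial and immune markers, 13 were measured and 2 (COL1A1 and CD14) lay above that level on all 6 arrays, and their summed signal was 1105 to 1170 in CRB3-expressing cells, against 1213 to 1246 in vector control cells. DCN was the only one of these 13 called, in a brightest probe set that can be shared between transcripts. This probe set read 6.93 in CRB3-expressing cells, against 7.68 in vector control cells, where it lay above that level. The other DCN probe sets did not lie above it, and they differed by -0.81, -0.42, -0.11, -0.036, 0.040 and 0.19. Of these only the one at -0.81, also of the shared kind, was called. Those from -0.11 to 0.19 are not of that kind and averaged 3.62 to 4.81 in vector control cells. What these markers contribute to the values below was not tested.

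CDKN1C was the only inhibitor called higher by more than 1.5-fold. Among the members, 1 gene was called higher, 0 were called lower and 8 were not called, where a call needs a limma adjusted p under 0.05 and a fold above 1.5. With every gene represented by its brightest probe set, 1.43% of all genes were called higher and 0.465% lower. By probe set, 4 of 23 members were called higher, against 0.948% of all probe sets, and 0 were called lower, against 0.363%. All 4 belonged to CDKN1C. The median difference of the 9 genes was 0.057, and that of all genes was 0.0066.

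**Figure D1:**
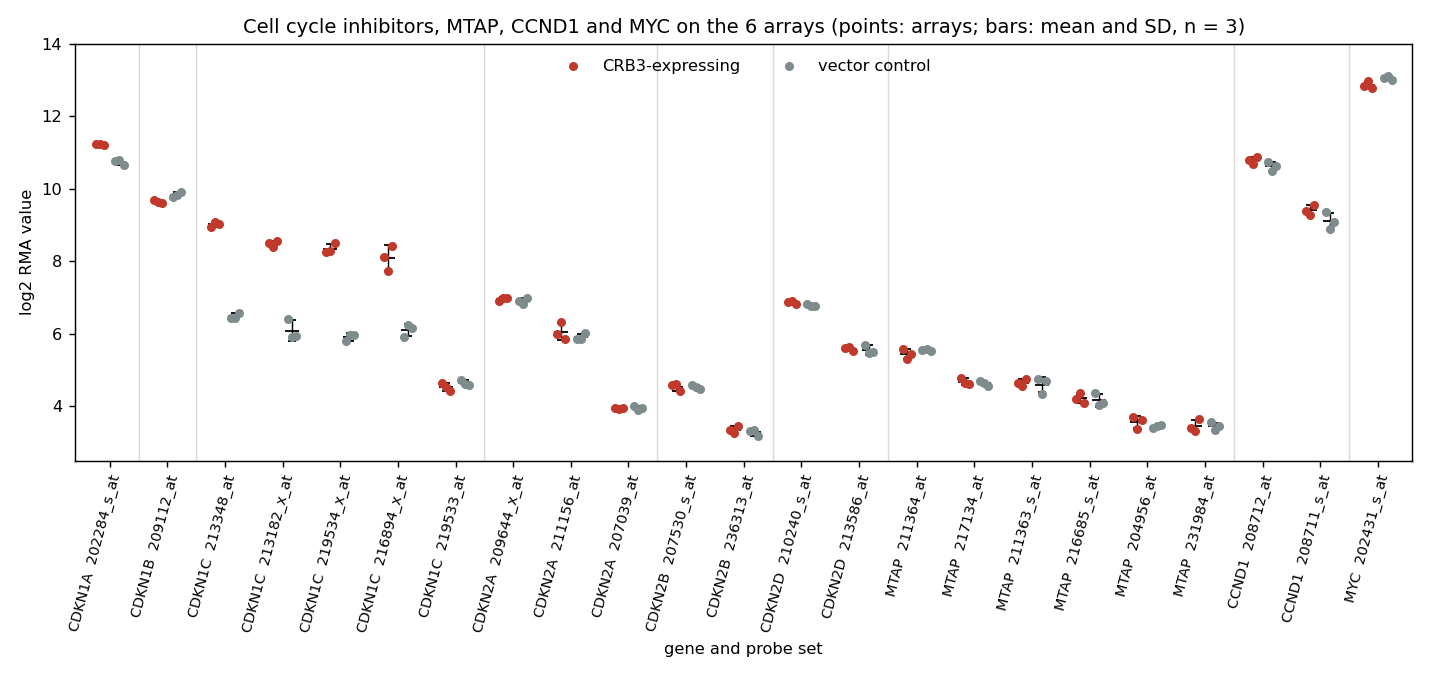
Level of each member probe set on the 6 arrays, on the log2 RMA scale, with CRB3-expressing cells left of vector control cells in each pair. Each point is an array, and the bar gives the mean with its SD (n = 3). The 4 CDKN1C probe sets that were called higher separate widely, whereas CDKN2A, CDKN2B and MTAP stay at or below 6.996 in both groups.

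p57, the product of CDKN1C, is an imprinted inhibitor of the CIP/KIP family that restrains proliferation during differentiation. Its brightest probe set, 213348_at, read 8.96, 9.10 and 9.03 in CRB3-expressing cells, against 6.44, 6.44 and 6.59 in vector control cells. The groups lay far apart, with SDs of 0.069 and 0.085 around means of 9.03 and 6.49. The measured difference was 2.54 (SE 0.071), or 5.82-fold, with a limma adjusted p of 3.43e-07. In bulk RNA, more expressing cells and more RNA per cell cannot be told apart. The vector control values lay within the range of genes restricted to other tissues, described below for the 9p21 genes, so the transcript was not shown to be above background there. The differences of all CDKN1C probe sets are therefore values as measured, and the size of the change in the transcript is not settled by them.

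Most other CDKN1C probe sets gave the same direction. Probe set 213182_x_at averaged 8.49 ± 0.086 in CRB3-expressing cells, against 6.09 ± 0.28 in vector control cells (SD, n = 3 each). Probe set 219534_x_at averaged 8.36 ± 0.14 in CRB3-expressing cells, against 5.91 ± 0.099 in vector control cells. Probe set 216894_x_at averaged 8.10 ± 0.35 in CRB3-expressing cells, against 6.10 ± 0.17 in vector control cells. Their vector control values also lay within that range, and their measured differences were 2.40, 2.44 and 1.996, with limma adjusted p-values of 1.41e-05, 1.34e-06 and 0.000184. The third of these was the least stable, since without empirical Bayes moderation its adjusted p was 0.0563. The fifth probe set, 219533_at, read 4.54 in CRB3-expressing cells, against 4.65 in vector control cells, a difference of -0.11 with a limma adjusted p of 0.541. Averaged over all 5 probe sets of the gene, the difference was 1.85. Probe sets ending in _x_at can take up related transcripts, whereas 213348_at carries no such mark.

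CDKN1C sits in an imprinted domain of 11p15, and the measured genes on either side give its local context. These 14 genes per side were chosen after the CDKN1C value had been seen. None of the 28 passed both thresholds, and their differences ran between -0.30 and 0.21, which is under the 1.5-fold threshold at both ends. KCNQ1OT1, the imprinted antisense RNA of the same domain, differed by 0.13 with a limma adjusted p of 0.508. It was among the 20 of these 28 genes that did not lie above the range of genes restricted to other tissues on all 6 arrays. Of all genes, 53.3% lay inside that range on every array, which is a stricter condition. PHLDA2, an imprinted growth regulator near CDKN1C, averaged 11.38 in CRB3-expressing cells, against 11.39 in vector control cells. NAP1L4, a histone chaperone gene further along, differed by -0.066.

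**Figure D2:**
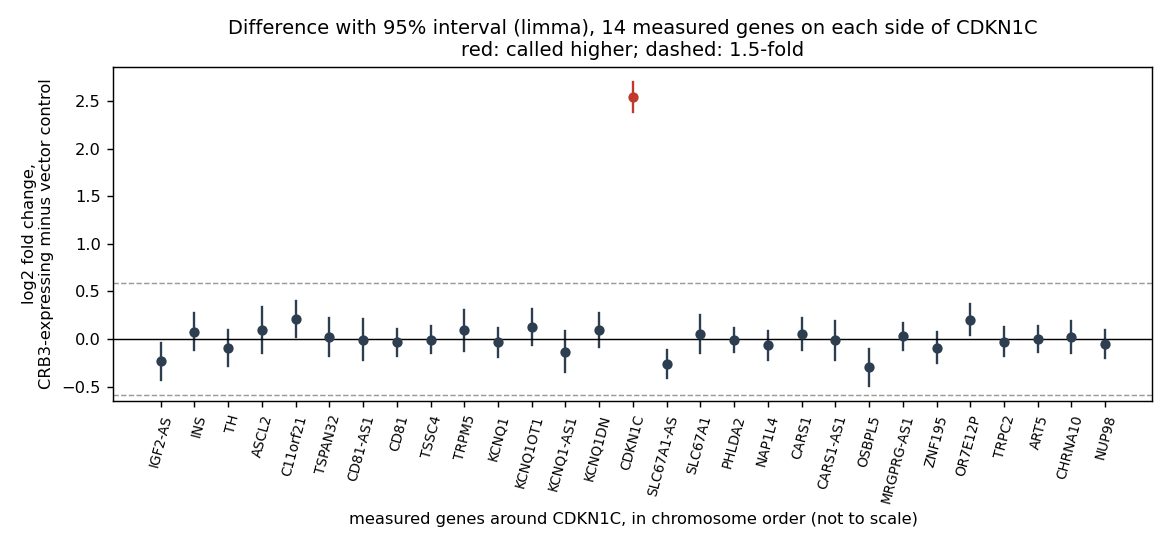
Difference of each measured gene around CDKN1C, CRB3-expressing minus vector control on the log2 scale, in chromosome order and not to scale. CDKN1C stands at 2.54, and the 28 other genes lie between -0.30 and 0.21.

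RNA of CDKN1A, a p53 target that encodes p21, was higher by less than the fold threshold. Its level was 11.23, 11.25 and 11.22 in CRB3-expressing cells, against 10.76, 10.80 and 10.65 in vector control cells. All 3 CRB3-expressing arrays lay above all 3 vector control arrays. The difference was 0.50 (SE 0.064, 95% interval 0.35 to 0.64), or 1.41-fold (1.28 to 1.56), with a limma adjusted p of 0.00285. On the adjusted p alone 2 of the 9 member genes passed, CDKN1A and CDKN1C, against 5.14% of all genes. CDKN1A was read in 1 probe set, which can be shared between transcripts of related sequence.

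p27, the product of CDKN1B, holds CDK2 inactive in resting cells. It read 9.71, 9.65 and 9.61 in CRB3-expressing cells, against 9.77, 9.82 and 9.92 in vector control cells. The CRB3-expressing arrays lay below the others without overlap. The difference was -0.18 (SE 0.067, 95% interval -0.33 to -0.029) with a limma adjusted p of 0.221, which did not pass. Of the 9 members, 2 had all CRB3-expressing arrays above the vector control arrays, where 14.5% of all genes did, and 2 had them below, where 12.1% of all genes did.

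Among the INK4 genes no probe set was called. p19, the product of CDKN2D on another chromosome, was read by 210240_s_at at 6.87, 6.91 and 6.81 in CRB3-expressing cells, against 6.81, 6.77 and 6.78 in vector control cells. The groups met at 6.81. The difference was 0.076 (SE 0.060, 95% interval -0.060 to 0.21) with a limma adjusted p of 0.596. Its second probe set, 213586_at, read 5.60 in CRB3-expressing cells, against 5.55 in vector control cells.

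**Figure D3:**
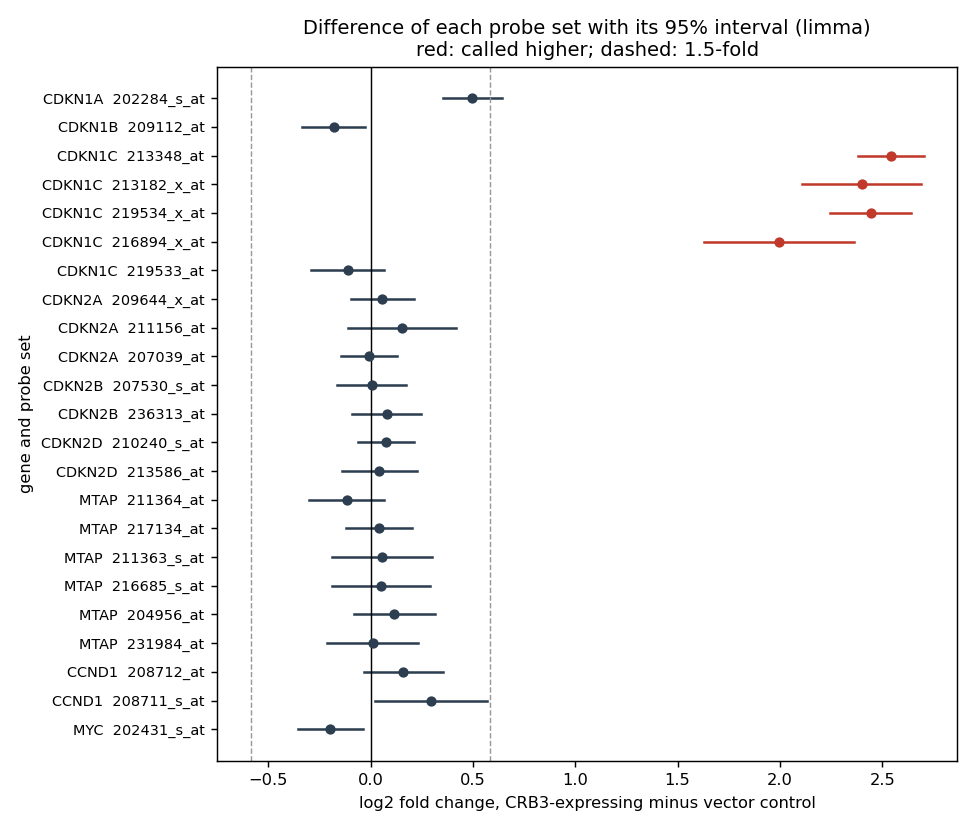
Difference of each member probe set, CRB3-expressing minus vector control on the log2 scale, with its 95% interval from limma (n = 3 each). The 4 upper CDKN1C probe sets lie between 1.996 and 2.54, CDKN1A lies at 0.50, and every other probe set lies between -0.20 and 0.30.

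The 9p21 genes gave low values in both groups. CDKN2A encodes p16 and, from its upstream start, ARF, which stabilizes p53, and its brightest probe set, 209644_x_at, read 6.91, 6.99 and 6.99 in CRB3-expressing cells, against 6.90, 6.82 and 6.996 in vector control cells. The groups overlapped, with a difference of 0.057 (SE 0.068, 95% interval -0.098 to 0.21) and a limma adjusted p of 0.745. The others, 211156_at and 207039_at, averaged 6.06 and 3.95 in CRB3-expressing cells, against 5.91 and 3.96 in vector control cells. p15, the product of CDKN2B and a mediator of growth arrest by TGF-beta, lay between 3.28 and 4.63 in CRB3-expressing cells, against a range of 3.18 to 4.60 in vector control cells, over both its probe sets. MTAP, which salvages adenine and methionine from methylthioadenosine, lay between 3.31 and 5.58 in CRB3-expressing cells, against a range of 3.35 to 5.59 in vector control cells, over its 6 probe sets. Its brightest probe set, 211364_at, read 5.58, 5.30 and 5.43 in CRB3-expressing cells, against 5.56, 5.59 and 5.52 in vector control cells. These groups overlapped and differed by -0.12 (SE 0.080) with a limma adjusted p of 0.532, and the other 5 differed by 0.010 to 0.12.

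To read those levels, 24 genes normally restricted to other tissues, such as liver, muscle and brain, served as a measure of what an unexpressed gene gives on these arrays. Their 46 probe sets lay between 2.96 and 7.39, with a median of 5.16 and an upper quartile of 5.9995. All 11 probe sets of CDKN2A, CDKN2B and MTAP lay inside this range on all 6 arrays. By the mean over 6 arrays, 1 of the 11, 209644_x_at of CDKN2A, lay above the upper quartile, whereas 211156_at exceeded it in the mean of CRB3-expressing cells alone. Such values were common, since 67.6% of all 54613 probe sets lay inside the range on every array, as did 3 of the 12 other member probe sets, both of CDKN2D and 1 of CDKN1C. Probe sets differ in brightness for the same amount of RNA, so this range bounds each level only roughly. RNA levels alone do not separate a lost gene from a silent one.

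The neighbouring genes placed these levels along the chromosome. Of 25 measured genes on each side of CDKN2A, MTAP and CDKN2B among them, 0 of 50 were called, with differences of -0.46 to 0.23. The gene at -0.46, IFT74, passed the limma adjusted p (0.0497) and missed only the fold threshold. On one side the nearest gene above the range was KLHL9, a ubiquitin ligase adaptor active in mitosis, at 9.16 in CRB3-expressing cells, against 8.995 in vector control cells. On the other it was ELAVL2, an RNA-binding protein best known from neurons, at 9.17 in CRB3-expressing cells, against 9.14 in vector control cells. The 11 measured genes between them include CDKN2A, CDKN2B and MTAP themselves and 4 interferon genes. They averaged 3.23 to 6.96, the highest being CDKN2A. Low values did not end at KLHL9, since the next 11 measured genes beyond it also did not lie above the range. All of those but HACD4 were interferon genes. In all, 38 of the 50 neighbours did not lie above the range on all 6 arrays. Of all 19775 genes in their brightest probe set, 53.3% lay inside the range on every array, which is a stricter condition. CDKN2B-AS1, the antisense RNA of the locus known as ANRIL, read 3.54 in CRB3-expressing cells, against 3.64 in vector control cells. DMRTA1, beyond CDKN2B, read 5.88 in CRB3-expressing cells, against 6.01 in vector control cells. MIR31HG, the host transcript of miR-31, read 6.19 in both groups.

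**Figure D4:**
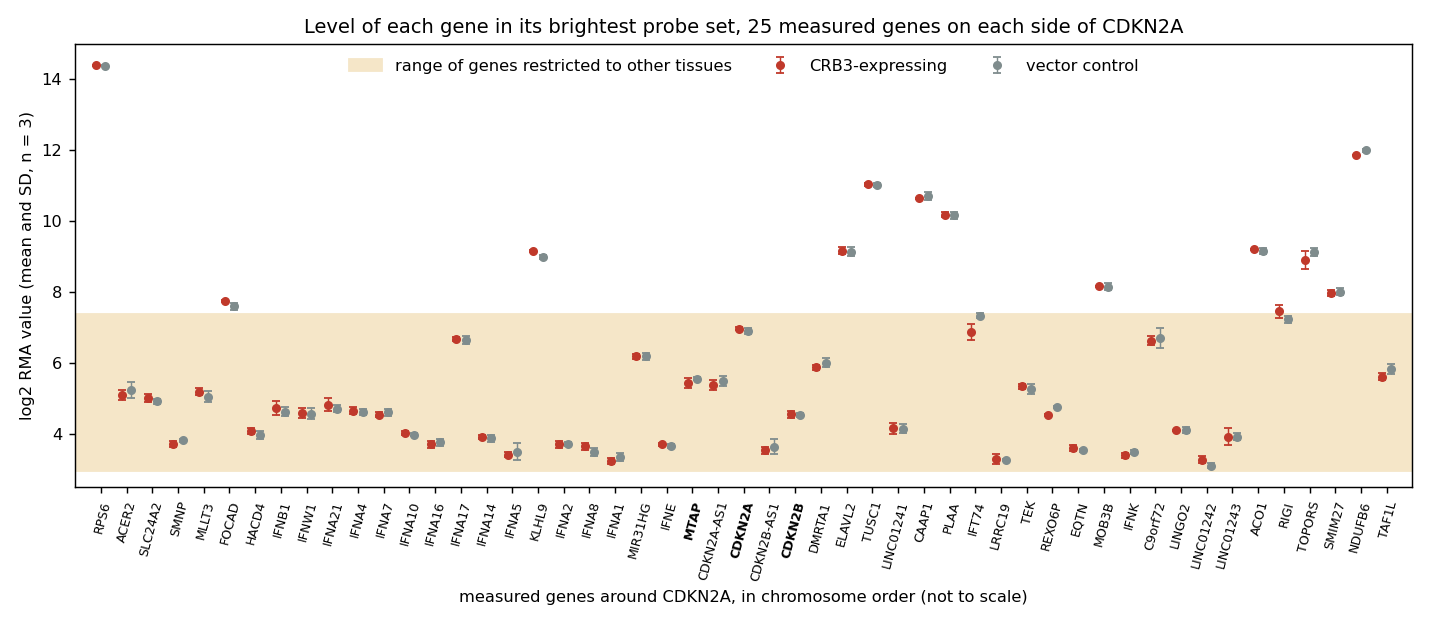
Level of each measured gene around CDKN2A on the log2 RMA scale, mean and SD (n = 3), in chromosome order and not to scale, with CRB3-expressing cells left of vector control cells. The band is the range of genes restricted to other tissues, 2.96 to 7.39. The 11 genes between KLHL9 and ELAVL2 lie inside it, CDKN2A, CDKN2B and MTAP among them.

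CCND1 and MYC, the growth-promoting members, were abundant and were not called. Cyclin D1 RNA in 208712_at read 10.79, 10.68 and 10.89 in CRB3-expressing cells, against 10.75, 10.50 and 10.63 in vector control cells. The groups overlapped, with a difference of 0.16 (SE 0.085, 95% interval -0.032 to 0.35) and a limma adjusted p of 0.402. Its second probe set, 208711_s_at, read 9.40, 9.28 and 9.55 in CRB3-expressing cells, against 9.37, 8.90 and 9.08 in vector control cells, a difference of 0.30 (SE 0.12) with a limma adjusted p of 0.266. MYC read 12.84, 12.97 and 12.79 in CRB3-expressing cells, against 13.05, 13.11 and 13.02 in vector control cells. The CRB3-expressing arrays lay below the others without overlap. The difference was -0.20 (SE 0.069, 95% interval -0.35 to -0.039) with a limma adjusted p of 0.199. With a mean-dependent and robust prior variance the adjusted p of MYC was 0.0183, still under the fold threshold.

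Of 87 measured genes in 5 lists of partners and regulators, leaving aside the members CCND1 and MYC that the lists also hold, 3 were called, or 3.45%, against 1.90% of all genes in either direction. Of 14 G1 cyclins and kinases, CCND1 included, 1 rose and 13 were not called, with a median difference of -0.058. The one that rose was CCND2, which encodes cyclin D2, another activator of CDK4 and CDK6. It read 11.74, 11.86 and 11.91 in CRB3-expressing cells, against 11.10, 11.08 and 11.05 in vector control cells. All CRB3-expressing arrays were higher, and the difference was 0.76 (SE 0.067), or 1.69-fold, with a limma adjusted p of 0.000305. Its other 3 probe sets differed by 0.77, 0.72 and 0.22, and the last was not called. CDK4, the kinase partner of D cyclins, averaged 11.68 in CRB3-expressing cells, against 11.78 in vector control cells, with a limma adjusted p of 0.502. None of the 18 RB and E2F genes was called, with a median of -0.056. The smallest p-values in that list were those of LIN9, a subunit of the DREAM complex (-0.30, limma adjusted p 0.0653), and the RB relative RBL1 (-0.22, limma adjusted p 0.117). The LIN9 value rested on 1 probe set of the _x_at kind, and without such shared probe sets the gene differed by -0.0038 (limma adjusted p 0.989).

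Among 20 genes that control the turnover of p21, p27, cyclin D and MYC, 0 rose and 1 fell, with a median of -0.037. The gene that fell was CUL4B, a scaffold of ubiquitin ligases that degrade cell cycle proteins, p21 among them. It read 10.37, 10.28 and 10.38 in CRB3-expressing cells, against 11.66, 11.57 and 11.69 in vector control cells. The groups were far apart, with a difference of -1.29 (SE 0.065), 2.45-fold lower, and a limma adjusted p of 1.01e-05. Its other 3 probe sets were also called lower, at -1.07, -1.35 and -1.44. Its close relative CUL4A averaged 9.82 in CRB3-expressing cells, against 9.85 in vector control cells. SKP2, which marks p27 for degradation, averaged 11.36 in CRB3-expressing cells, against 11.37 in vector control cells.

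None of the 12 measured genes of the MYC and MAX network, MYC included, was called, with a median of -0.040. MXI1, which competes with MYC for MAX, averaged 9.07 in CRB3-expressing cells, against 9.48 in vector control cells, a difference of -0.41 with a limma adjusted p of 0.0154, and so missed only the fold threshold. Of 25 measured transcriptional regulators of inhibitor genes, 1 rose and 24 were not called, with a median of -0.028. The one that rose was KLF4, an epithelial factor known to activate CDKN1A. It read 8.70, 8.73 and 8.51 in CRB3-expressing cells, against 7.60, 7.78 and 7.89 in vector control cells. The groups did not overlap, and the difference was 0.89 (SE 0.093), or 1.85-fold, with a limma adjusted p of 0.000862. Without empirical Bayes moderation its adjusted p was 0.0658 and the call was lost. Its second probe set was also called higher, at 0.61. A pair of regulators chosen after their values were seen passed the adjusted p but not the fold: KLF6, which also activates CDKN1A, at 0.46 (limma adjusted p 0.00493), and FOXO1, an activator of CDKN1B, at -0.38 (limma adjusted p 0.0195).

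**Figure D5:**
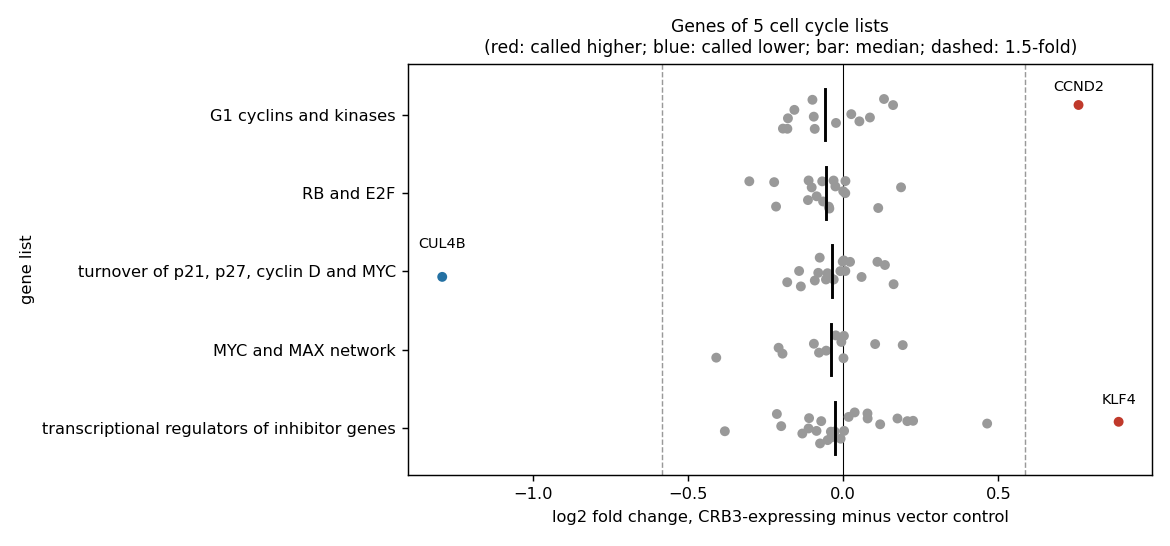
Difference of every measured gene of 5 cell cycle lists, each in its brightest probe set, CRB3-expressing minus vector control on the log2 scale. Black bars are list medians, which lie between -0.058 and -0.028, and the coloured points are the called genes CCND2, CUL4B and KLF4.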

How the data were processed

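Biotin-labelled RNA of 3 CRB3-expressing and 3 vector control cultures was hybridised to Affymetrix human U133 Plus 2.0 arrays. The deposited values are log2 expression values made by the authors with RMA, which corrects background, normalizes by quantiles and summarizes probes. No version is given in the sources used here. They were used as deposited, and with so few arrays precision is limited.

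After 62 control probe sets were left out, 54613 were fitted by lmFit and eBayes of limma 3.58.1 (R 4.3.3, with tables joined in Python 3.11.15), group being the only term, and p-values were adjusted by the Benjamini-Hochberg method across these. A call needed an adjusted p under 0.05 and a fold above 1.5. The platform annotation gave 41091 probe sets 1 symbol, 1801 several and 11721 none. A gene was read in its single-symbol probe set with the highest mean over 6 arrays. In data simulated for this comparison over 54613 probe sets, 92% of probe sets changed by 1 and 100% of those changed by 2.5 (log2) were called, and 0 of 54413 unchanged ones.

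The members and lists were chosen with earlier results of these data known. The text names all member probe sets, in each list up to 4 called genes or, where none was called, the 2 with the smallest p, and on each side of CDKN2A the nearest measured gene above the range of tissue-restricted genes. CDK4, CUL4A, SKP2, KLF6, FOXO1 and further neighbours at both loci fall outside this rule and were chosen after their values were seen. Replicate numbers were not used to pair the samples in the main fit. The alternatives were a replicate block, other variance priors, renormalization, array weights, filters on dim and shared probe sets, other fold rules, averaged probe sets and leaving out each array.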

Additional observations from a re-analysis of the deposited data

How the results depend on the processing

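CDKN1C was called higher under all 18 alternatives. CDKN1A kept its direction wherever it was measured and joined the calls only without a fold threshold; leaving out shared probe sets removed its single probe set. Without empirical Bayes moderation, 174 genes were called higher and 46 lower (297 and 82 probe sets), and 0 regulators of inhibitor genes. Testing against the 1.5-fold threshold itself left 98 genes higher and 15 lower (170 and 32 probe sets), with 0 G1 cyclins and kinases and 0 regulators higher. A threshold of 2-fold left 111 higher and 20 lower (196 and 44 probe sets), again with 0 in both lists. Without a fold threshold, 666 genes were higher and 351 lower (1226 and 759 probe sets), with 2 member genes and 2 regulators higher, 1 regulator lower and 1 gene of the MYC and MAX network lower. Averaging the probe sets of a gene gave 59 genes lower. Leaving out probe sets shared between transcripts gave 325 probe sets higher and 113 lower, with 1 member probe set, 0 G1 cyclins and kinases and 0 regulators higher and 0 turnover genes lower, because every probe set of CCND2, KLF4 and CUL4B is of that kind, and 7 of 7 probe sets of the 9p21 genes stayed inside the range of tissue-restricted genes.

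The directions that turned were those of uncalled genes and probe sets, and the cause was not tested. MTAP, at -0.12 in its brightest probe set, was at 0.026 when its probe sets were averaged. CDKN2B 207530_s_at was -0.0075 after median-centring and -0.0048 after quantile normalization, and MTAP 231984_at was -0.0028 and -0.0048. With each array left out in turn, CDKN2B 207530_s_at ran between -0.035 and 0.068, CDKN2A 207039_at between -0.032 and 0.018, and CDKN2D 213586_at between -0.0016 and 0.12. MTAP 231984_at ran between -0.088 and 0.085, 217134_at between -0.0078 and 0.079, 211363_s_at between -0.069 and 0.13, and 216685_s_at between -0.019 and 0.15. Over the same fits 273 to 291 genes were higher and 90 to 102 lower.

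Arrays of the same number correlated at -0.085, 0.064 and 0.029 in their deviations from the group means. Those of different numbers correlated at -0.19 to 0.16. Deviations from a mean of 3 arrays are tied to each other, so these values cannot tell whether cultures were prepared in parallel. With the replicate block, 282 genes were higher and 92 lower, and 373 of these 374 were also called without it. Of the member probe sets, 4 were called in that fit as well. Changes under 1 on the log2 scale were not simulated, so the power to find differences as small as those of CDKN1B and MYC is not known.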
